A study of Rattus norvegicus with 2 samples.

Results

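The genes examined here encode the subunits of the proteasome, the large protease that degrades proteins tagged with ubiquitin. Probes were chosen by name: every non-control spot whose gene name, without the array's suffix for predicted genes, began with Psma, Psmb, Psmc, Psmd or Psme and a number. This took 50 of the 41012 gene probes on the array, under 42 gene names. They comprised 9 probes for the alpha subunits of the core, 10 for its beta subunits, 9 under Psmc names for the ATPases of the cap, 17 for the non-ATPase subunits of the cap and 5 for the activators. The name rule also took Psmc3ip, which encodes a factor of meiotic recombination that binds the ATPase Psmc3 and is no proteasome subunit. It is given with its own values and named where it counts. It also took Psma3l, a symbol that RefSeq lists as a synonym of Psma3. Psmd14 and Psma8 were not analysed here.

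Expression was compared between HIP rats, which are transgenic for human islet amyloid polypeptide (IAPP), and nondiabetic wild-type rats. As background, the HIP transgene is driven by an insulin promoter and so acts in beta cells. The series title names islet inflammation, ductal proliferation and pancreatitis as the subject, while the labels call the material only cell samples and give no tissue, age or strain. Amplified cDNA of 2 wild-type extracts (Cy3) and 2 HIP extracts (Cy5) was hybridised in pairs to 2 arrays of 1 slide. Each array thus gave 1 log2 ratio of HIP over wild type per probe, and n = 2 arrays throughout. HIP RNA carried Cy5 on both arrays, so an effect of the dye and one of the genotype cannot be told apart. Whether each extract is a different rat is not stated, so the p-values cover the variation among these samples alone, and that variation may be technical.

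As background, the core of the proteasome is a barrel of 4 stacked rings. The outer rings hold the alpha subunits, which gate the entrance, and the inner rings hold the beta subunits, of which Psmb5, Psmb6 and Psmb7 carry the proteolytic sites. Interferon induces Psmb8, Psmb9 and Psmb10, which take the places of these in the immunoproteasome, a form that favours peptides for MHC class I. The cap that recognises ubiquitin has a base with a ring of ATPases (Psmc genes), which unfold the substrate, and a lid and receptors built from non-ATPase subunits (Psmd genes). The activators Psme1 to Psme4 can sit on the core in place of the cap. In beta cells, which fold large amounts of proinsulin, the proteasome takes up proteins removed from the endoplasmic reticulum, and aggregated human IAPP has been linked to a strained ubiquitin-proteasome system.

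Signal quality limits what single values can carry. Of the 43379 gene spots, 73.6% (wild type 2) to 85.04% (HIP 1) were well above background in an extract, and the same held for 77.4% to 90.1% of 1112 spots for olfactory receptors, whose expression is mainly confined to the olfactory epithelium. A spot above background was therefore not read as expression. Of the defining islet markers, the insulin genes Ins1 and Ins2 had processed signals of 44286 and 96063 in wild type 1 and of 19104 and 46151 in HIP 1. Both insulin ratios were below 0 on each array (Ins1 -1.18 and -1.02, Ins2 -1.04 and -0.85). The islet markers Iapp (0.51 and 0.10), Ppy (0.93 and 0.19) and Sst (0.13 and 0.09) were above 0 on each array. Iapp and Sst were the dimmest tested islet probes, at 66.2 and 49.8 in wild type 2 and 127 and 78.7 in HIP 2. Of the 10 tested islet probes HIP was higher on each array for 3 (30%, against 27.3% of all probes) and lower for 3 (30%, against 23.1%). By their signals Iapp and Sst passed the filter through the HIP dye alone, the one in which they are high. Their places among the higher probes therefore support nothing. Of the fixed marker probes, 8 of 12 for islet endocrine cells, 9 of 10 for acinar cells, 5 of 9 for ductal cells and 7 of 8 for leukocytes were well above background in all 4 extracts. The ductal marker Spp1 did not pass the filter, with processed signals from 9.98 to 16.9. The median ratio was 0.05 over the tested islet probes, 0.12 over acinar, -0.25 over ductal and 0.03 over leukocyte probes. In such bulk extracts fewer cells of a type and less RNA per cell cannot be told apart, and the part of cell composition in the results was not tested.

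No proteasome probe passed the test. Of the 50 probes, 45 (40 gene names) passed the filter, which asked that 1 dye be well above background on both arrays, and 40 were above it in all 4 extracts. By limma with Benjamini-Hochberg adjustment over all 33224 probes tested, 0 of the 45 passed the 0.05 threshold as higher in HIP and 0 as lower, against 0% of all probes in either direction. Their adjusted p ranged from 0.931 to 0.999. At an unadjusted threshold of 0.05, 2 probes passed, both higher, for Psmb4 and Psme4 (4.44% of the 45). The Psme4 probe was tested only because its HIP dye was bright, and with both dyes required on both arrays 1 member probe passed. Over all probes 3.33% passed, 1.77% as higher and 1.55% as lower. The median ratio over the 45 probes was -0.11 on array 1 and 0.08 on array 2, beside 0.04 and 0.02 over all probes.

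The arrays rarely gave a member the same large ratio. Of the 45 probes, 23 had 1 sign on both arrays (51.1%, against 50.3% of all probes). HIP was the higher genotype for 12 of these (26.7%, against 27.3%) and the lower for 11 (24.4%, against 23.1%), and 22 had opposite signs (48.9%, against 49.7%). With each array centred on its median in place of loess, the split was 20 higher and 8 lower. In that setting the median over all tested probes was itself above 0, at 0.16 on array 1 and 0.24 on array 2. The shares of all probes in each direction are not given for it, so this split has no background beside it. Of the 45, 2 were at least 2-fold higher on both arrays (4.44%, against 2.6% of all probes), 0 were at least 2-fold lower on both (against 2.47%), which makes 2 of 45 the same way (against 5.07%). The 2 were Psmb4 and Psme4, and the Psme4 probe was tested only through its bright HIP dye. On at least 1 array 26 differed 2-fold (57.8%, against 48.1%), and 3 did so on both arrays in opposite directions (6.67%, against 5.39%). Those 3 were Psmc2, Psmc5 and Psme1. These shares lay near those of all probes.

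**Figure D1:**
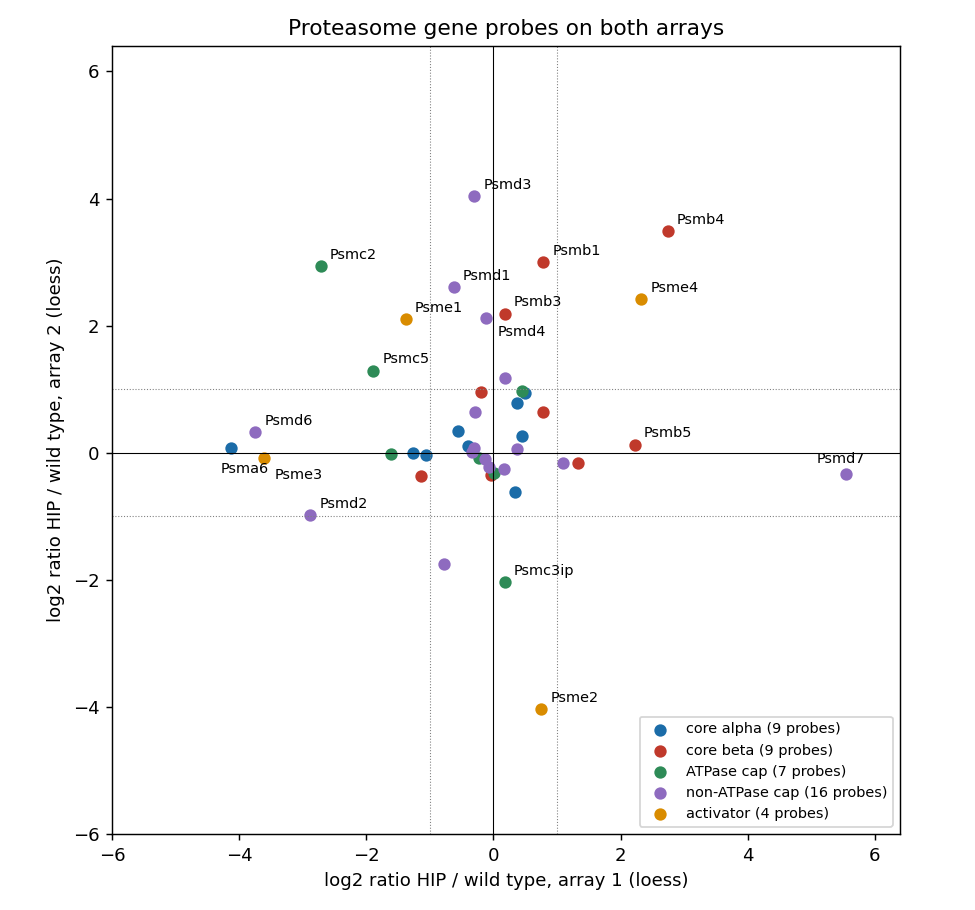
Each point is 1 of the 45 tested proteasome probes, with its log2 ratio of HIP over wild type on array 1 (x axis) and on array 2 (y axis), coloured by subunit group; dotted lines mark 2-fold. Psmb4 and 1 Psme4 probe lie beyond 2-fold in the upper right, 0 probes lie beyond it in the lower left, and most large ratios occur on 1 array with a ratio near 0 on the other.

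The alpha subunits, which form the outer rings, had no probe at least 2-fold the same way on both arrays (against 5.07% of all probes). Among the 9 probes HIP was higher on each array for 3 (against 27.3% of all probes) and lower on each for 2 (against 23.1%). Opposite signs were found for 4 (against 49.7%). The median was -0.40 on array 1 and 0.10 on array 2. Psma3 had processed signals of 5471 and 3407 in wild type 1 and 2 and of 7100 and 5797 in HIP 1 and 2. Both HIP extracts were the higher of their array, and the mean log2 ratio was 0.58 ± 0.29 (SD, n = 2 arrays). The probe named Psma3l gave 0.50 and 0.94 (0.72 ± 0.31), so the highest mean ratios of this group came from a pair of probes for what RefSeq treats as 1 gene. The designs of these probes were not compared, so whether they bind the same transcript was not tested. Psma5 followed at 0.36 ± 0.13.

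The lowest alpha values rested on wild type 1. For Psma6 1 probe read 8657 in wild type 1 but 311 in HIP 1, 171 in wild type 2 and 169 in HIP 2, and its ratios were -4.13 and 0.08. The other Psma6 probe read 3340 and 377 in wild type 1 and 2 and 2266 and 605 in HIP 1 and 2, with ratios of -0.56 and 0.34. Psma4 (-1.26, and near 0 on array 2) and Psma7 (-1.06 and -0.03) also were below 0 on array 1 alone by more than 2-fold. In these 3 genes the wild type 1 signal was the highest of the 4 extracts. Psma1 was 0.34 and -0.62, and Psma2, the dimmest of the group, -0.40 and 0.10.

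The beta subunits had a median of 0.79 on array 1 and 0.64 on array 2. HIP was higher on each array for 5 of 9 tested probes (against 27.3% of all probes) and lower on each for 2 (against 23.1%), and with 9 probes these counts are a description. The 5 include Psmb1, which passed the filter through the HIP dye alone, the one in which it is high. The median of their mean ratios was 0.71, the highest of the 5 groups, beside 0.03 over all probes, but it rested on single values of wide spread and has no test. Among the 3 constitutive catalytic subunits, Psmb6, the caspase-like site, read 9199 and 3696 in wild type 1 and 2 and 15244 and 5891 in HIP 1 and 2. Each HIP extract was above its own array's wild type, but HIP 2 was below wild type 1, so the genotypes overlapped. Its mean ratio was 0.71 ± 0.10 (adjusted p = 0.931 by limma), and 5550 of the probes tested had a higher mean.

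Psmb5, the chymotrypsin-like site, read 6448 and 1751 in the wild-type extracts and 30184 and 1737 in HIP 1 and HIP 2. Its ratio of 2.22 on array 1 was thus absent on array 2 (0.13), and HIP 1 alone stood apart. Psmb7, the trypsin-like site, was 1.33 and -0.15 and was highest in HIP 1 as well.

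Their interferon-induced counterparts differed in sign. Psmb8, the counterpart of Psmb5, read 4248 and 2814 in the wild-type extracts and 1857 and 1902 in the HIP extracts. Both HIP values were below both wild-type values, and the ratios were -1.13 and -0.36 (-0.75 ± 0.55, adjusted p = 0.931 by limma). Psmb9, the counterpart of Psmb6, was -0.19 and 0.96. Psmb10, the counterpart of Psmb7, did not pass the filter: it read 19689 in wild type 1 and 170 in HIP 1, and on array 2 neither dye was well above background.

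The structural beta subunit Psmb4 had the highest mean ratio of all proteasome probes. It read 367 and 398 in wild type 1 and 2, and 4353 and 8341 in HIP 1 and 2. The wild-type extracts lay close together and both HIP extracts were far above them, so the genotypes did not overlap. The ratios were 2.75 and 3.49, a mean of 3.12 ± 0.52 with a standard error of 0.44 from the fit, or 8.68-fold, and 117 of the 33224 probes tested had a higher mean. The unadjusted p was 0.00831 by limma and the adjusted p was 0.931, so it did not pass. Its mean relative to the median of all probes lay between 3.09 and 3.98 in the settings that used both arrays, and was 3.47 on array 2 alone and 2.71 on array 1 alone. Psmb4 has 1 probe on the array, so no second probe bears on it.

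Of the other structural beta subunits, Psmb1 read 105 and 377 on array 1 and 47.9 and 3347 on array 2 in wild type and HIP. Its wild type 2 spot was not well above background, so the probe passed the filter through the HIP dye alone. The ratios of Psmb1 were 0.79 and 3.00. Psmb3 was 0.18 and 2.19, with HIP 2 highest at 18372, and Psmb2 was -0.05 and -0.34.

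The promoters of 3 beta subunit genes are shown. These genes represent the highest ratio (Psmb4) and the closest agreement of both arrays among the catalytic subunits (Psmb6). The third, Psmb8, is the interferon-induced beta subunit with a tested probe that was lower on both arrays. The sequences are RefSeq's on the build GRCr8, from 250 bases before the gene's start to 50 after it, in the direction of transcription. Capitals mark matches to TGACNNNGC, the core of the antioxidant response element that the proteasome activators Nfe2l1 and Nfe2l2 bind, or to GAAANNGAAA, a form of the interferon-stimulated response element; both strands were searched and the motifs do not overlap here.
Psmb4 (chr2:185134512-185134811, minus strand): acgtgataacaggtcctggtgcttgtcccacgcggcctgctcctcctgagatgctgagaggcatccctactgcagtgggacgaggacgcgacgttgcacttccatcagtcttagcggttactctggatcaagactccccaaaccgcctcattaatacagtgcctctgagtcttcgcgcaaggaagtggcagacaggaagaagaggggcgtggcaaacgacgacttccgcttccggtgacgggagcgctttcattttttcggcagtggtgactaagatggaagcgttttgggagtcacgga
Psmb6 (chr10:55737638-55737937, plus strand): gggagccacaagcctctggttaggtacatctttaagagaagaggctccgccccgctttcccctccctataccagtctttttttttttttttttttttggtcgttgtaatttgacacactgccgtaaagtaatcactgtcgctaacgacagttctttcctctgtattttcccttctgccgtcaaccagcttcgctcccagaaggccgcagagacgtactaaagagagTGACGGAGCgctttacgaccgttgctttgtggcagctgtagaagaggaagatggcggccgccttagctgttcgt
Psmb8 (chr20:4656982-4657281, minus strand): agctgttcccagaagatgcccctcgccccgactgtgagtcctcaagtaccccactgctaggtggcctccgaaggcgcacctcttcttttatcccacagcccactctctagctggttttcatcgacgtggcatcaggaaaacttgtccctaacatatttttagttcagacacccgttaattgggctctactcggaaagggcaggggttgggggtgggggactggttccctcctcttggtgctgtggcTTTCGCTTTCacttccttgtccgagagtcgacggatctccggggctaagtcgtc
The Psmb6 window held 1 match to TGACNNNGC at bases 227 to 235, the Psmb8 window held 1 match to GAAANNGAAA on the opposite strand at bases 247 to 256, and the Psmb4 window held neither. Of the 42 names, 38 had a promoter in the table; Psma3l, Psma7, Psmd6 and Psmd12 were not matched. TGACNNNGC occurred in 8 of the 38 (21.05%), those of Psma3, Psmb2, Psmb5, Psmb6, Psmd1, Psmd3, Psmd9 and Psme4, and in 12.1% of all 33469 promoters of that length. GAAANNGAAA occurred in 6 of the 38 (15.8%), those of Psma4, Psmb3, Psmb8, Psmb10, Psmd7 and Psme2, and in 3.92% of all. These matches describe the letters of the windows, and the ratios of the genes that held them ran in both directions, among the tested probes from -4.03 for Psme2 on array 2 to 5.54 for Psmd7 on array 1. The Psmb10 probe, which was not tested, gave -5.78 on array 1 and -0.21 on array 2, where neither dye was well above background.

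Among the ATPases of the cap, Psmc2 and Psmc5 were beyond 2-fold in opposite directions on the arrays. Under Psmc names 7 probes were tested, with medians of -0.23 and -0.01. HIP was higher on each array for 1 (against 27.3% of all probes) and lower for 2 (against 23.1%), and 4 had opposite signs (against 49.7%). Psmc2 read 4330 and 4387 in wild type 1 and 2, but 467 in HIP 1 and 36681 in HIP 2. The wild-type extracts matched closely while the HIP extracts lay on either side of them, at ratios of -2.72 and 2.94. Psmc5, the brightest probe of this group, read 58764 and 15931 in wild type and 15458 and 39088 in HIP, with ratios of -1.89 and 1.29. Its mean lay 0.36 above the median of all probes with median centring, and was -0.30 with loess.

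Psmc3 was the 1 ATPase gene higher on both arrays, at 2245 and 1795 in wild type and 3271 and 3489 in HIP. The genotypes did not overlap, and the ratios were 0.45 and 0.97 (0.71 ± 0.36, adjusted p = 0.931 by limma). Psmc1 was 0.01 and -0.32. Psmc4 was -0.23 and -0.08 from its brighter probe and -1.62 and -0.01 from the other. Both Psmc6 probes were left out by the filter: each was well above background only in wild type 1 and HIP 2. Psmc3ip, the gene that is no subunit, was 0.18 and -2.04, with wild type 2 highest at 2361.

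The non-ATPase subunits, the largest group, had medians of -0.21 and 0.03. HIP was higher on each array for 2 of 16 tested probes (against 27.3% of all probes) and lower for 4 (against 23.1%). Opposite signs were found for 10 (against 49.7%), and with 16 probes these counts are a description. The highest means came from single extracts. For Psmd7, a lid subunit, 1 probe read 56589 in HIP 1 against 845, 1458 and 993 in wild type 1, wild type 2 and HIP 2 (ratios 5.54 and -0.34). A second Psmd7 probe read 514 and 452 in wild type and 465 and 388 in HIP (-0.13 and -0.10). The large value was thus seen with 1 probe in 1 extract. Psmd3, another lid subunit, read 19695 in HIP 2 and between 641 and 864 in the other 3 extracts (-0.30 and 4.04). Psmd4, a ubiquitin receptor, was -0.11 and 2.12, again with HIP 2 the highest at 8196.

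Psmd13 was the probe of this group higher on both arrays by the most, at 491 and 149 in wild type and 682 and 841 in HIP (0.19 and 1.18). Psmd8 was 0.36 and 0.06, but with median centring its mean took the other sign (-0.16, taken against all probes' median). At the other end, 1 probe of Psmd2, a scaffold of the base, read 20052 and 5692 in wild type and 2515 and 2506 in HIP. Both HIP values were below both wild-type values, with ratios of -2.88 and -0.98 (-1.93 ± 1.34, adjusted p = 0.931 by limma), but its second probe gave -0.30 and 0.64. Psmd12, a lid subunit, read 275 and 76.9 in wild type and HIP on array 1 and 2223 and 435 on array 2. It was lower in HIP within each array (-0.78 and -1.75), but HIP 2 exceeded wild type 1, so the genotypes overlapped. With the scanner's processed signals Psmd12 was -1.84 and -2.35, beyond 2-fold on both arrays.

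Psmd6, a lid subunit, read 3786 in wild type 1, 79.5 in HIP 1 and 111 in HIP 2, and its wild type 2 spot was not well above background (-3.75 and 0.32). Other subunits were close to even. Psmd9, an assembly chaperone, was -0.33 and 0.01, Psmd10, another chaperone of the base, -0.06 and -0.23, Psmd11 0.16 and -0.25, and Psmd5 -0.31 and 0.08. With median centring the means of Psmd9 and Psmd10 took the other sign, at 0.22 and 0.28 relative to the median of all probes.

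Among the activators, each of the 4 tested probes was at least 2-fold apart on at least 1 array (against 48.1% of all probes). With 4 probes this count is a description, and the Psme4 probe was tested only because its HIP dye was bright. Psme1 and Psme2, which together form an interferon-induced ring, went opposite ways. Psme1 read 3656 and 158 in wild type 1 and 2 and 1309 and 2159 in HIP 1 and 2 (-1.38 and 2.10). Psme2 read 2149 and 77148 in wild type and 4318 and 4803 in HIP (0.75 and -4.03). In both the HIP extracts were alike and the wild-type extracts were far apart. Psme3, the nuclear activator, read 26629 in wild type 1, 1999 in HIP 1, 226 in wild type 2 and 198 in HIP 2 (-3.62 and -0.08).

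Psme4, which encodes a single-chain activator, was the other member past 2-fold on both arrays. Its probe was not well above background in wild type on either array, with processed signals of 50.2 and 70.4, and read 1546 and 2383 in HIP. The ratios were 2.33 and 2.42 (adjusted p = 0.931 by limma), and the mean ratio was 5.18-fold higher in HIP. The probe passed the filter through the HIP dye alone, the one in which it is high, so its p and its place among the tested probes support nothing. A bound was sought by taking the wild-type level per array as the higher of the probe's own signal and the lowest signal well above background. The probe's own signal was the one used, so the result was again 5.18-fold. This value is therefore the measured ratio and no lower limit, and it is open to dye bias. The second Psme4 probe did not pass the filter and gave -1.03 and 0.21. In the authors' deposited table the entry under the first probe was -0.28 on array 1 and 4.34 on array 2, which differs from the scanner's ratio for that probe (4.94 and 5.08).

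**Figure D2:**
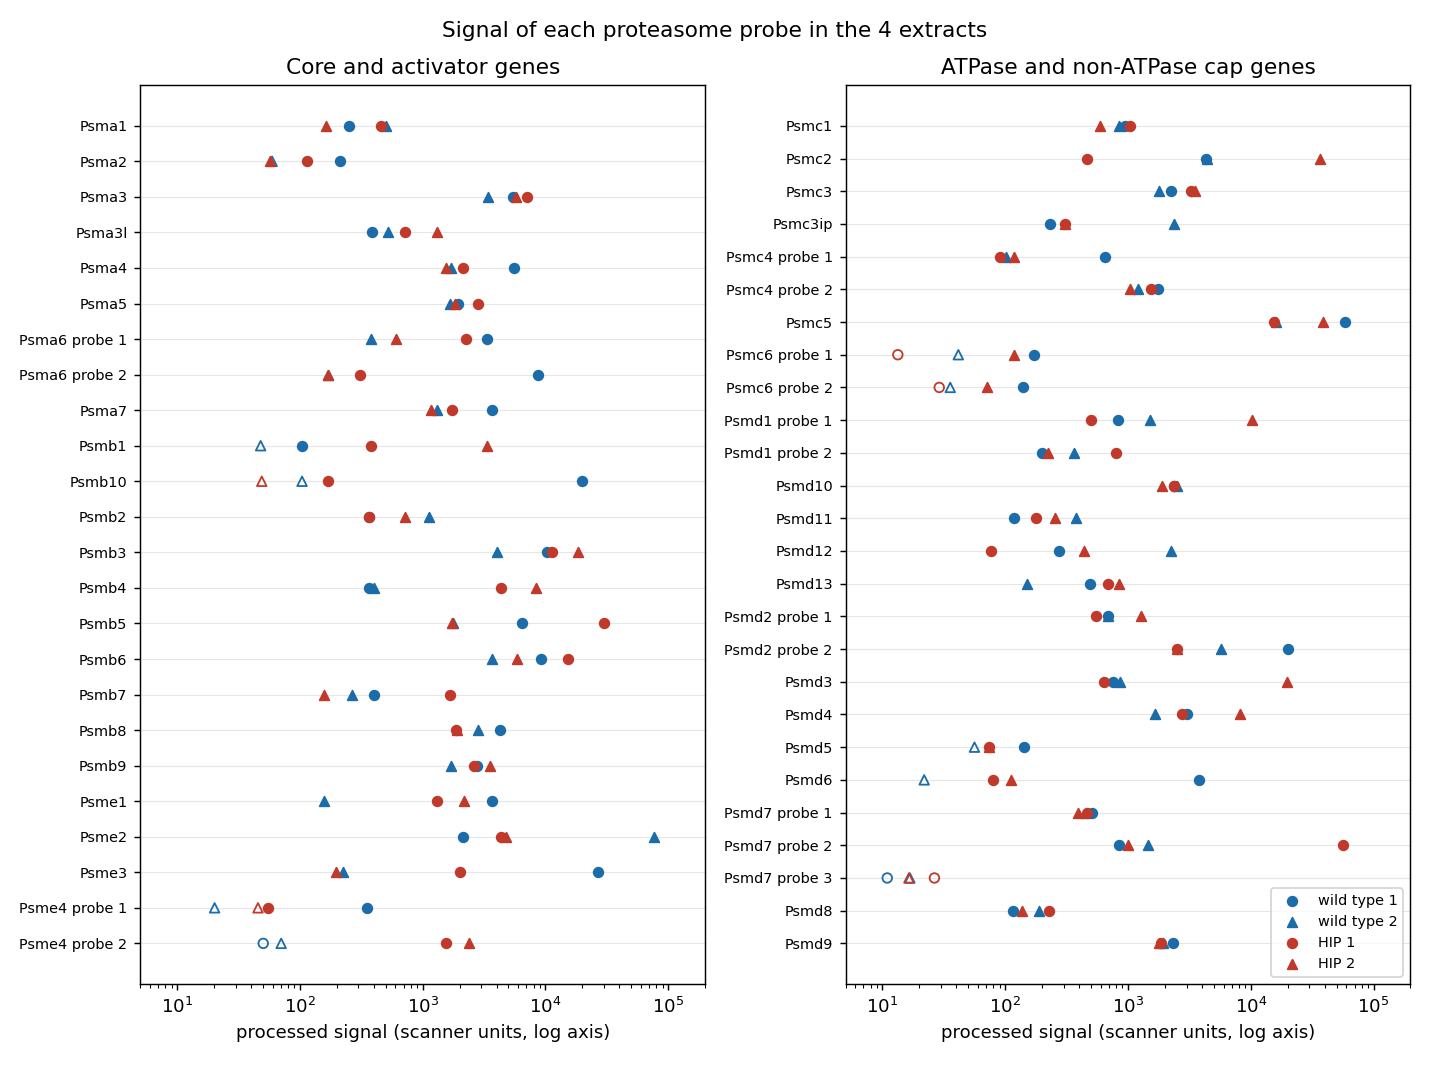
Processed signal (x axis, log scale, scanner units) of the 50 proteasome probes in wild type (blue) and HIP (red), with circles for array 1 and triangles for array 2; open symbols were not well above background. Signals are to be compared within a row. For Psmb4 and the second Psme4 row both red symbols lie right of both blue ones by a wide gap, whereas for Psmd3, the second Psmd7 row, Psme2 and Psme3 a single symbol stands apart, and for Psmc2 the red symbols lie on either side of the blue ones.

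Genes with several probes gave a check on single values. There were 7 such genes with 15 probes, placed by the array's own positions along each gene. For 5 genes 2 probes were tested, and the means of the 2 tested probes differed by 1.92 for Psma6, 0.66 for Psmc4, 0.52 for Psmd1, 2.10 for Psmd2 and 2.72 for Psmd7 on the log2 scale. The median of these 5 differences was 1.92, beside 0.69 over 2534 genes with 2 tested probes, and the signs agreed in 3 of the 5 genes (60%, against 53.7%). With 5 genes this difference was not tested.

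No order along the gene was shared by these genes. The probe with the larger deviation lay upstream of its partner in Psma6, Psmc4 and Psmd2, by 6667, 595 and 1592 bases of genomic distance, and downstream in Psmd7, by 691 bases. In Psmd1 the upstream probe read 199 and 799 in wild type and HIP on array 1 and 360 and 224 on array 2. The downstream one, 8288 bases away, had ratios of -0.63 and 2.61, so the signs of these probes were opposite on both arrays.

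**Figure D3:**
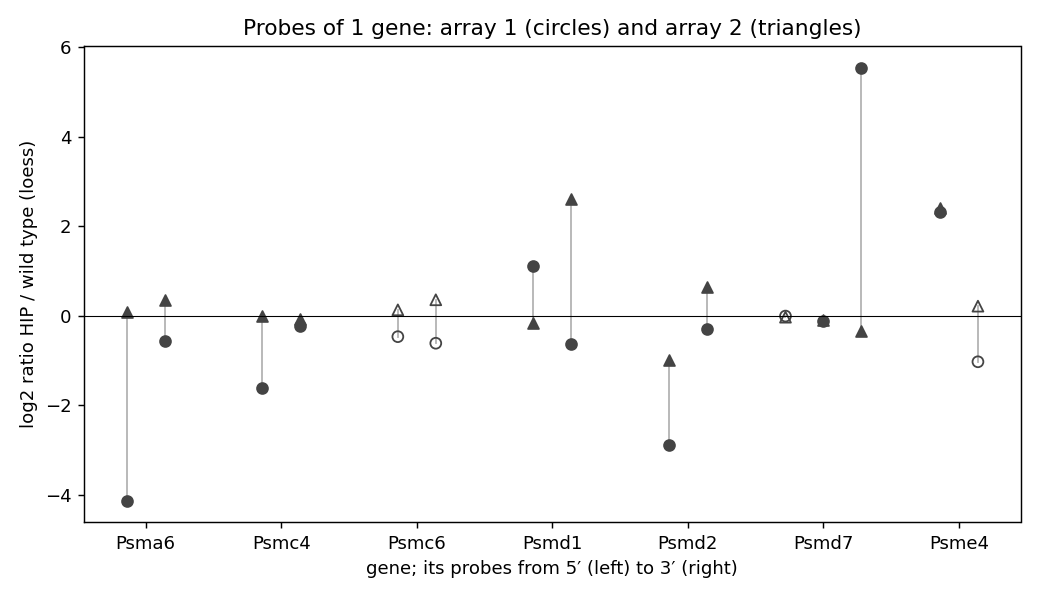
Log2 ratio of HIP over wild type on array 1 (circles) and array 2 (triangles) for the 15 probes of the 7 genes with several probes, ordered from 5′ to 3′ within each gene; open symbols mark probes that did not pass the filter. The wide bars of Psma6, Psmd2 and Psmd7 are each seen with 1 probe and not with its tested partner.

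Differences between extracts of 1 genotype were of a size with those between genotypes, but the 2 kinds are not alike. Extracts of 1 genotype lay on different arrays in the same dye, so their differences include variation between arrays. The genotypes were compared on 1 array in different dyes, so those differences include an effect of the dye. The parts of array and dye were not tested. After quantile normalization of the mean intensities between arrays, the median absolute log2 difference over the 45 probes was 0.65 between the wild-type extracts and 0.55 between the HIP extracts. Between HIP and wild type it was 0.56 on array 1 and 0.36 on array 2. Differences of at least 2-fold were found for 17 probes between the wild-type extracts (37.8%), 16 between the HIP extracts (35.6%), 17 between genotypes on array 1 (37.8%) and 14 on array 2 (31.1%). Over all probes tested these shares were 30.0%, 30.2%, 30.5% and 28.1%.

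Single extracts accounted for the widest values. On these levels, 1 extract stood at least 4-fold above the other 3 for 10 of the 45 probes (22.2%, against 13.7% of all probes) and at least 4-fold below for 1 (2.22%, against 1.05%). The high extract was HIP 2 for Psmb1, Psmc2, Psmd1 and Psmd3, wild type 1 for Psma6, Psmd6 and Psme3, HIP 1 for Psmb5 and Psmd7, and wild type 2 for Psme2. Among these, Psmb1 passed the filter only through the HIP dye. The 1 low value was Psmc2 in HIP 1. The largest gap to the next extract was 31.7-fold, for Psmd7.

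On the same levels both HIP extracts lay above both wild-type extracts for 9 probes (20%, against 16% of all probes), namely Psma3, Psma3l, Psmb1, Psmb3, Psmb4, Psmc3, Psmd8, Psmd13 and Psme4. Of these, Psmb1 and Psme4 passed the filter through the HIP dye alone, the one in which they are high. Their places in this count therefore support nothing. Both lay below for 5 (11.1%, against 15.2%), namely Psmb8, Psmd10 and 1 probe each of Psmc4, Psmd2 and Psmd7. For Psmd8 and this Psmc4 probe the array 2 ratio was close to even, at 0.06 and -0.01. With the scanner's processed signals it took the other sign in each, at -0.48 and 0.20. The scanner software's error model, which covers the noise of spots on 1 array and not differences between extracts, gave p-values below 0.01 on both arrays for 9 probes with the same direction (20%, against 18% of all probes) and for 11 with opposite directions (24.4%, against 18.5%).

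**Figure D4:**
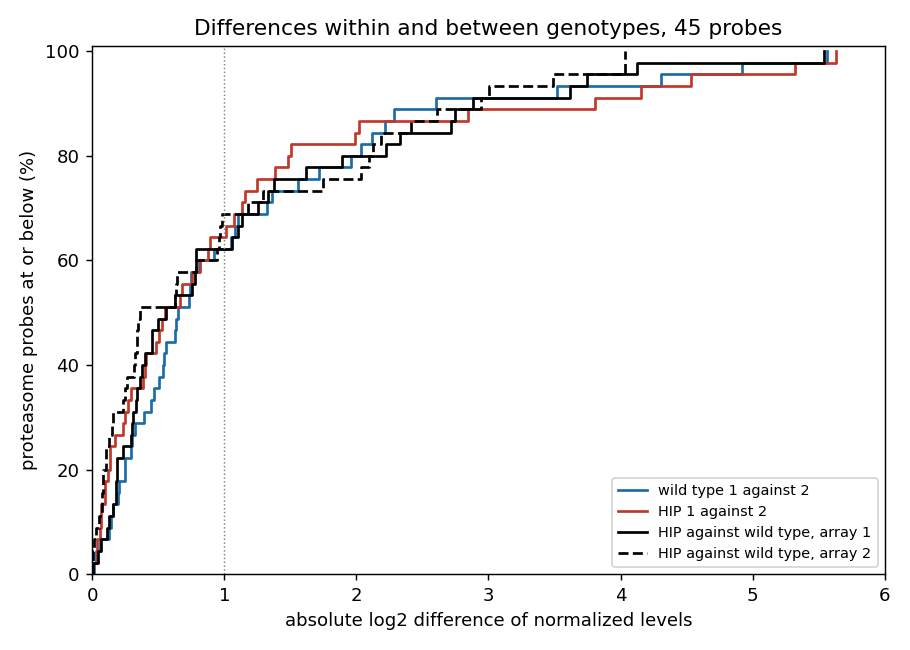
Cumulative share (y axis, percent) of the 45 tested proteasome probes by absolute log2 difference of normalized levels (x axis). Coloured lines compare extracts of the same genotype, on different arrays in the same dye. Black lines compare extracts of different genotype, on 1 array in different dyes. The dotted line marks 2-fold. The 4 curves run close together, with medians from 0.36 to 0.65.

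Genes around the proteasome were read from a list of 46 names for assembly factors, ubiquitin genes, shuttles and regulators, of which 34 genes with 46 probes were tested. By limma 0 probes passed in either direction after adjustment and 5 of 46 did at the unadjusted threshold of 0.05 (10.9%, against 3.33% of all probes). These shares were not compared by a test. Of the list's probes, 39 were well above background in all 4 extracts. The other tested ones passed the filter through 1 dye alone. Where that dye is the one in which a probe is high, its place in these counts supports nothing. HIP was the higher on each array for 15 of the 46 probes (32.6%, against 27.3%) and the lower for 11 (23.9%, against 23.1%), and 20 had opposite signs (43.5%, against 49.7%), and the median ratio was 0.04, beside 0.03 over all probes. Rps27a, which encodes ubiquitin fused to a ribosomal protein, was 1.80 and 3.09. The 2 probes of Ubb, a polyubiquitin gene, went opposite ways, at 0.67 and 1.58 from the brighter and -0.16 and -2.54 from the other.

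Of the remaining genes of this list, 1 probe of Zfand5 (Zfp216 on the array), which binds ubiquitin and the proteasome, was 4.55 and 4.08. It read 111 and 45.8 in wild type 1 and 2 and 10481 and 10135 in HIP 1 and 2. The other tested Zfand5 probe was 0.34 and 0.02. Lower on both arrays by 2-fold were 1 probe each of the shuttle factor Ubqln1 (-1.71 and -1.37) and of the ubiquitin-conjugating enzyme Ube2n (-2.56 and -1.25). Their second probes gave -0.55 and 0.09, and -2.64 and 2.04. The first Ube2n probe read 3869 and 614 in wild type and 477 and 31.5 in HIP. By these signals it passed the filter through the wild-type dye alone, and the first Zfand5 probe through the HIP dye alone. Each is high in that dye, so their places in the counts support nothing. With both dyes required on both arrays, the count of pathway probes 2-fold the same way fell from 5 to 3. The shuttle factor Ubqln2, among the 4 brightest, was -0.04 and -0.47. The core assembly factor Pomp was -1.13 and -0.72, and Psmg1, its partner in assembly, 0.03 and 0.02. Nfe2l1, the transcription factor that raises proteasome genes when the proteasome is inhibited, was -0.89 and 4.27 from 1 probe and -1.83 and 0.42 from the other.

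The interferon and antigen presentation genes that rise with the immunoproteasome had no probe past 2-fold the same way on both arrays (against 5.07% of all probes). Of 13 names, 12 genes with 16 probes were tested. HIP was higher on each array for 2 probes (12.5%, against 27.3% of all probes) and lower for 4 (25%, against 23.1%). Opposite signs were found for 10 (62.5%, against 49.7%). The probes lower on each array were for B2m and Ifng. By limma 0 passed at the adjusted threshold or at the unadjusted 0.05 (against 0% and 3.33% of all probes). The median ratio was -0.29. B2m, the light chain of MHC class I, had 4 tested probes with means from -0.76 to -0.12. Tap1, the peptide transporter subunit, was -3.18 and 0.24, and its partner Tap2 -1.33 and 0.96. The brightest of this list, Tapbp, was -1.18 and 0.19, and Irf1, an interferon-induced activator, was 0.59 and -0.34.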

How the data were processed

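The scanner output deposited by the authors gives, for each spot and dye, mean spot intensity and median background intensity, quantified with Agilent Feature Extraction 9.5.1.1 on array design 014879, per the file headers. Its processed signal intensity was background-subtracted, detrended and dye-normalized, per the file headers. The deposited log10 ratio is processed Cy5 (HIP) over Cy3 (wild type), and the p-value beside it is the software's error model for 1 array, per the file headers. Per the labels, mRNA was isolated on beads and its cDNA amplified by a global PCR method, which can change the proportions of transcripts.

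With limma 3.58.1 in R 4.3.3, background was corrected by normexp (offset 50) and ratios were normalized by loess within each array. The offset draws the ratios of dim probes toward 0. Spots with outlier marks were left out (0 of the member spots), and probes needed 1 dye well above background on both arrays. The planned wording of this filter also allowed a different dye on each array, and the reading used was settled after both had been run. Each probe's mean ratio was set against 0 in a moderated fit (lmFit, eBayes; both directions; 1 residual and 1.68 prior degrees of freedom) and adjusted by Benjamini-Hochberg over all probes. Levels between arrays come from Aquantile normalization. The test was checked on simulated data. The authors' deposited table of log10 ratios had entries for 42 member probes, of which 35 equalled the scanner's ratio; how the 7 others were made is not given in these sources. Promoters are RefSeq's, and old array names in the pathway and marker lists were updated through RefSeq's table. Precision is limited by the number of arrays. The members, the lists and the named genes (every member, and of the other pathway genes those 2-fold the same way on both arrays, the 4 brightest and a few regulators added after their values were seen) were chosen with earlier results of these data known. Some genes that this rule names are not reported here.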

Additional observations from a re-analysis of the deposited data

How the results depend on the processing

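No count of probes passing the adjusted test changed from 0, for members or for all probes, under median centring, no normalization, the scanner's processed signals, no background correction, other filters, 1 probe per gene, trended or robust priors, or the 4 channels as separate samples. At the unadjusted threshold of 0.05 these gave between 1 (both dyes of both arrays well above background) and 8 (no normalization) member probes. The 1 was of 40 member probes, beside 977 of 28756 over all probes. The 8 were of 45, beside 5623 of 33224 over all probes. The count of member probes at least 2-fold the same way on both arrays was 2, and became 4 with median centring, 12 without normalization, 5 with the processed signals and 1 with both dyes of both arrays above background. For the other pathway probes that count was 5, and became 9, 14, 9 and 3 in the same settings and 3 with 1 probe per gene. The share of all probes is given for the main setting alone (5.07%). The counts in the other settings thus have no background beside them and are no result about these genes. Without normalization the median ratio of all probes was 0.79 on array 1 and 1.20 on array 2, and with median centring 0.16 and 0.24.

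Relative to the median of all probes, the group medians were -0.17 (core alpha), 0.69 (core beta), -0.18 (ATPase cap), 0.04 (non-ATPase cap) and -0.67 (activators). With median centring, and so also without normalization, they became 1.32 for core beta, 0.14 for the ATPase cap, 0.25 for the non-ATPase cap and -0.27 for the activators. With the processed signals core alpha was -0.43 and the activators -0.22. The activator median was -1.64 where both dyes had to be above background, a filter that drops Psme4. Leaving out 1 array gave -0.44 to 0.08, 0.62 to 0.75, -0.27 to -0.03, -0.25 to 0.012 and -0.35 to 0.99 in the order above. The cause of these changes was not tested. With 1 array left no test and no agreement count can be had. Of 390 values of single members under alternatives, 19, from 10 probes, had the other sign. The added filter that counts either dye on each array, and leaving out Psmc3ip, both chosen after seeing the data, left 23 probes of 1 sign and 2 beyond 2-fold. No paired analysis was possible because the only pairing, HIP and wild type on 1 array, is already within each ratio.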
